A study of Drosophila melanogaster with 3 samples.

Results

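The genes described here are 10 core genes of the Polycomb group, ph-p, ph-d, Psc, Su(z)2, Pc, Sce, E(z), esc, Su(z)12 and pho, out of 13968 protein-coding genes on the 7 chromosome arms of the fly genome. They were selected on the peaks of the protein Row at and near them, with those results known, so the presence and strength of peaks there is a description and was not tested. Row, named as a relative of woc, has zinc fingers and is found in a complex with the proteins WOC and HP1c. The map came from ChIP-seq, which sequences the DNA recovered with a protein by an antibody. Whole Drosophila melanogaster embryos aged 0 to 24 h expressed a transgene for Row joined to enhanced green fluorescent protein (row-eGFP), and an antibody against that tag recovered the chromatin. All samples formed 1 group, with 3 biological replicates from a single transgenic strain, and no other genotype or treatment was part of it. Whole embryos mix every cell type and stage of that day of development, so a peak is an average over them, and the promoter that drives the transgene is not stated in the labels. A possible control is named in the labels but was not analysed here.

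Polycomb group proteins keep developmental genes, the Hox genes above all, silent in cells where they are not to be used. Polycomb repressive complex 1 (PRC1) compacts chromatin and ubiquitinates histone H2A, and Polycomb repressive complex 2 (PRC2) methylates histone H3. Both are brought to Polycomb response elements (PREs) by DNA-binding proteins, of which Pho is the best known. Polycomb group genes in flies are themselves widely transcribed in the embryo, and ph-p and ph-d, like Psc and Su(z)2, are neighbouring duplicates.

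Each deposited peak had a summit, its point of highest enrichment, and a signal value, the enrichment that the authors' peak caller gave it. The signal value is the authors' own and was used only to rank peaks within a list. A list of peaks that repeated between replicates 1 and 2, called conservative by the authors, was the main one, with 10483 peaks at an irreproducible discovery rate (IDR) of 0.01. The list of replicate 1 at the same threshold was the longest, with 10959 peaks, and those of replicates 2 and 3 held 8567 and 7635. Read depth is unknown, so no counting error can be given, and the spread between replicates is the only error. A summit within 500 bp of a transcription start site (TSS) is called a promoter summit here.

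Row summits lay at the promoters of 6 of the 10 genes in the conservative list, ph-p, ph-d, Su(z)2, E(z), Su(z)12 and pho, where 36.4% of all protein-coding genes had one. Psc, Pc, Sce and esc had none. In replicate 1 the count was 8 of 10 (all genes 40.3%), since Psc and Pc also passed there. Replicate 2 had 5 of 10 (all genes 32.0%), without Su(z)2, and replicate 3 had 6 of 10 (all genes 32.8%). A promoter summit was listed in each of the 3 replicates for 5 genes, ph-p, ph-d, E(z), Su(z)12 and pho (all genes 28.5%), and in at least 1 replicate for 8 (all genes 42.7%). Summits in the gene body were found in 6 of the 10 genes, ph-p, ph-d, Psc, Su(z)2, E(z) and Su(z)12 (all genes 19.2%). All 10 had a summit in the gene or within 10 kb of it (all genes 79.8%). Since the selection used these lists, nothing is read from the counts. The genes were also long, with a median of 8.36 kb, against 2.16 kb for all protein-coding genes, which gives summits in the body more room.

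**Figure D1:**
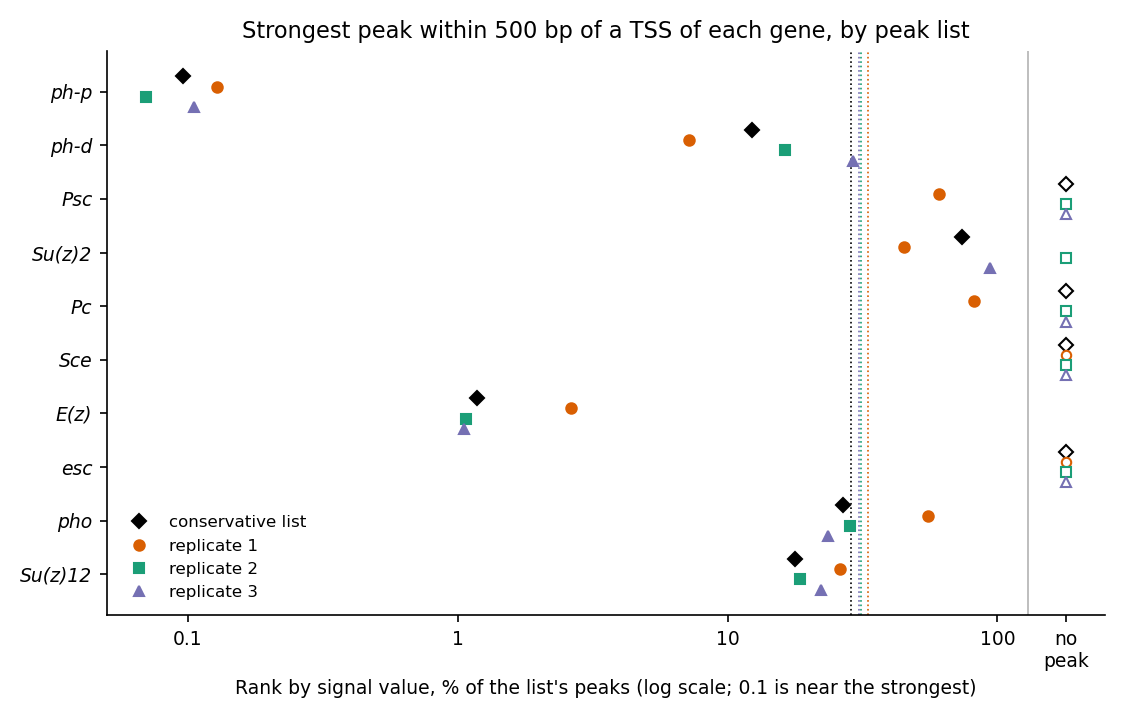
Rank of the strongest promoter peak of each Polycomb group gene, as a percentage of the peaks in its list (log axis, strongest at the left), in the conservative list (black diamonds) and in the 3 replicates (coloured symbols); open symbols at the right mark lists with no promoter summit, and dotted lines give the median of all genes with one, in the colour of the list. ph-p lies at 0.128% or less in every list and E(z) at 2.63% or less, while Sce and esc have no promoter summit in any list.

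The strongest promoter peaks of the 6 genes ranked from 10, at ph-p, to 7743, at Su(z)2, of 10483. They had a median signal of 856.2, and those of all 5089 genes with a promoter summit had a median of 507.4. As a rank percentile, where low is strong, the median of the Polycomb group genes was 15.1% in the conservative list (all genes 28.6%), 35.5% in replicate 1 (33.1%), 16.3% in replicate 2 (31.1%) and 22.9% in replicate 3 (30.8%). In replicate 1, which also lists the weak summits at Psc and Pc, the median was thus not on the strong side. Within 10 kb of the 10 genes there were 43 distinct summits in 37 peak intervals. Of these, 12 lay within 500 bp of a TSS of one of the genes, 10 nearer to the TSS of some other gene and within 500 bp of it, 9 farther out inside a gene and 12 farther out between genes. Their density was 1.67 summits per 10 kb over the 258.2 kb covered, against 0.762 per 10 kb over the 7 arms. The arms include sequence far from any gene, so these densities are not of like sequence. Counted per gene, the median was 3.5 summits in the gene or within 10 kb, against 2.0 for all protein-coding genes. A peak in each of the 3 replicates overlapped 34 of the 43 (79.1%), while 62.1% of all conservative peaks had this. Both shares count overlap of whole intervals, so a weak summit can count through a stronger neighbour. For the 2136736 summit of ph-p (signal 15.9), the nearest summits in replicates 1, 2 and 3 were 192, 150 and 208 bp away. The genes were also selected on their peaks, and the difference was not tested.

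The 12 promoter summits of the 6 genes split evenly around the nearest own TSS, with 6 downstream and 6 upstream. At 4 of the 6 genes, E(z), Su(z)2, ph-d and Su(z)12, the strongest promoter summit lay downstream of the nearest own TSS, by 74, 84, 114 and 125 bp, and in each case in a 5′ UTR. For E(z) this depends on the start used, since the summit lies 177 bp upstream of its inner TSS, the start of 2 of its 3 protein-coding transcripts. E(z) and Su(z)12 also each have a gene starting nearby on the other strand. Their summits lie upstream of these genes too, 90 bp from the TSS of Cnep1r2 and 334 bp from that of Pfdn6. At pho and ph-p the strongest promoter summit lay upstream, by 173 and 469 bp. Among all 5089 genes with a promoter summit, the strongest was upstream in 90.4%, with a median position of -116 bp relative to the TSS. The side was not part of the selection, but 6 genes are few, some have several TSSs, and the comparison was not tested. In the replicates the positions at 3 of the 4 genes repeated: at E(z) the summit lay 77, 74 and 110 bp downstream in replicates 1, 2 and 3, at ph-d 112, 115 and 112 bp, and at Su(z)12 131, 86 and 66 bp. At Su(z)2 it was 90 bp upstream in replicate 1 and 87 bp downstream in replicate 3.

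**Figure D2:**
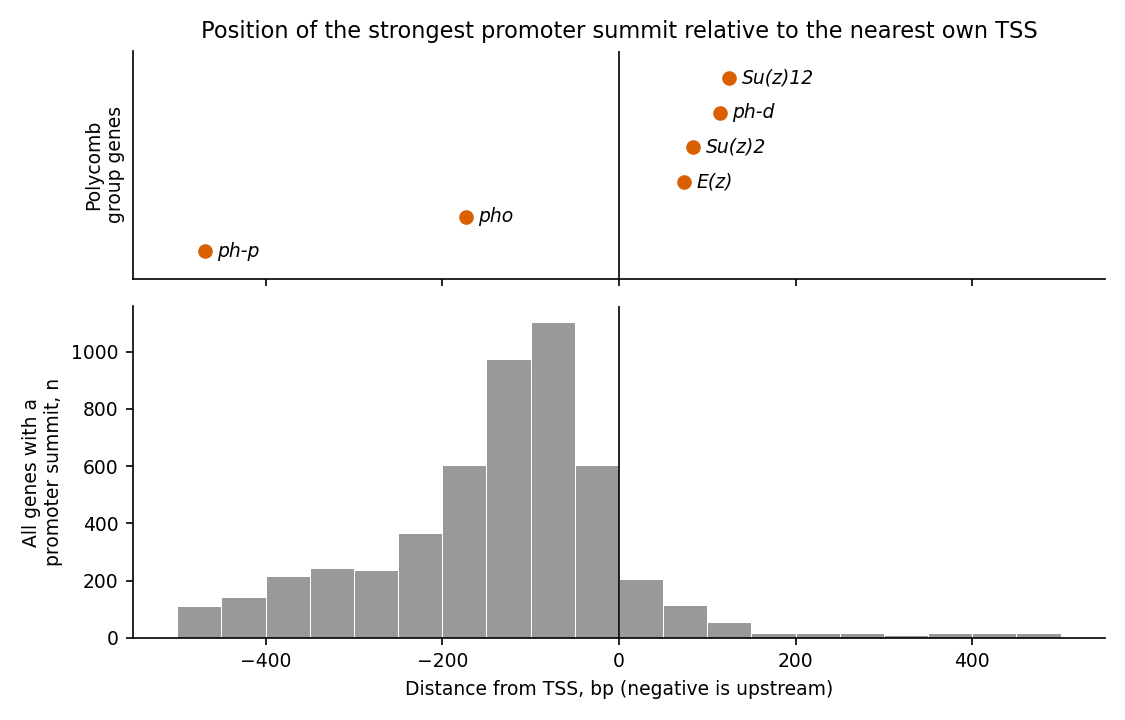
Position of the strongest promoter summit in bp from the nearest own TSS, for the 6 Polycomb group genes with one (top, 1 point per gene) and for all 5089 genes with one (bottom, genes per 50-bp bin). E(z), Su(z)2, ph-d and Su(z)12 lie to the right of the TSS, where the histogram is low. The E(z) and Su(z)12 summits are also upstream of a gene on the other strand.

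Among PRC1 genes, ph-p carried the strongest Row peak of the group. Polyhomeotic proximal is a subunit with a SAM domain through which PRC1 polymerises. The gene (FBgn0004861, dm6 X, 2126210 to 2138371, minus strand) has 3 TSSs, at 2138371, 2136855 and 2136622. Its strongest summit lay at 2137324, in an intron downstream of the distal TSS and 469 bp upstream of the middle one, so it was just inside the promoter window. The signal was 6484.8, rank 10 of the list, and ph-p was the 12th of 5089 genes by promoter signal. In the replicates this peak had a signal of 1946.8 and rank 14 in replicate 1, 2731.3 and rank 6 in replicate 2, and 2293.7 and rank 8 in replicate 3. The summits of the replicates lay 4, 14 and 20 bp from the conservative one, so the site repeated closely. The next strongest, at 2137960 in the 5′ UTR and 411 bp downstream of the distal TSS, had signal 2620.8 and rank 186, with ranks 176, 90 and 164 in replicates 1, 2 and 3. Weaker promoter summits lay at 2136537 (475.8) and 2136736 (15.9). These 4 promoter summits put ph-p among 22 genes, 0.158% of all, with at least that many, although its 3 TSSs give it more windows than a gene with 1. The count of 4 rests on the 2136736 summit, which had rank 10267 of 10483. Its nearest summits in replicates 1, 2 and 3 lay 192, 150 and 208 bp away, and each replicate listed 3 promoter summits at ph-p. Farther into the gene an intronic summit at 2135353 had signal 1316.8 and ranks 761, 746 and 829 in replicates 1, 2 and 3. Another at 2134423 had 444.5. Within 10 kb of ph-p there were 14 summits, 4 of them those of ph-d and 4 upstream nearer to D2hgdh or Pgd, and 0.43% of all genes had as many. The other 9 genes had 1 to 8 each. By the ranks of the strongest promoter peak over the 3 replicates, the genes most like ph-p of 3983 compared were Art3 and mRpS10, which share 1 peak (ranks 10, 7 and 4), and CG14100 (ranks 22, 8 and 6), at distances of 0.0649, 0.0649 and 0.0810 percentile points.

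Polyhomeotic distal, the product of ph-d (FBgn0004860, X, 2115727 to 2123286, minus strand), is a close relative of ph-p's product and lies next to it. Its strongest promoter summit, at 2123172 in the 5′ UTR, had signal 965.5 and rank 1285. In replicate 1 the peak had a signal of 439.1 and rank 789, in replicate 2 315.9 and rank 1393, and in replicate 3 201.4 and rank 2224. A summit at 2122131, 339 bp upstream of the inner TSS, had 310.7. The strongest peak at ph-d was not a promoter peak by the 500-bp rule. It lay just outside, 786 bp upstream of the distal TSS at 2124072 between the genes, with signal 1419.3 and rank 649. Its signals were 286.2, 619.8 and 486.2 in replicates 1, 2 and 3, with ranks 1645, 434 and 560, so the order of the upstream and the promoter peak was opposite in replicate 1 to that in replicates 2 and 3. A shoulder of the same interval at 2124285 had 567.7.

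The ph genes arose by duplication, and alignment of the regions shows which peaks lie on shared sequence. The largest block, of 4480 aligned columns at 92.0% identity, lies in the 3′ part of both genes and holds no summit in either copy. The promoter block, from 2123181 to 2123696 at ph-d and from 2136747 to 2137264 at ph-p, is 90.7% identical over 529 columns. It starts 9 bp upstream of the ph-d promoter summit and holds no summit in either copy, and the distal ph-d TSS aligns exactly with the middle ph-p TSS at 2136855. Over 120 bp upstream of these TSSs, 110 of 121 aligned columns are the same, with 6 mismatches and 5 gap columns. This pair of stretches is shown because it is promoter sequence that both copies keep; capitals mark bases that differ or have no partner in the other copy, and both read 5′ to 3′ on the minus strand.
ph-d, chrX:2123287-2123406: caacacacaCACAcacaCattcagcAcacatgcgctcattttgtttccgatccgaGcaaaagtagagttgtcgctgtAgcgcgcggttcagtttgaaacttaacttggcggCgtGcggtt
ph-p, chrX:2136856-2136972: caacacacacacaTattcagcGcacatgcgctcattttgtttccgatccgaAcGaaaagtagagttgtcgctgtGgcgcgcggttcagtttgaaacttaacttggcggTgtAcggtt

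The strongest ph-p summit lies outside every aligned block. It sits in 208 bp, from 2137265 to 2137472, between neighbouring blocks, where ph-d has 15 bp. The 2124072 summit of ph-d also lies between blocks, in 209 bp where ph-p has 98 bp. Inside the aligned blocks, only the summits at 2137960 in ph-p (signal 2620.8) and 2124285 in ph-d (567.7) fall at matching places. They lie in a block of 81.0% identity, 17 bp apart after alignment. The summits at 2123172 in ph-d (965.5) and 2136736 in ph-p (15.9) lie just outside the same end of the promoter block. That end is at 2123181 in ph-d and 2136747 in ph-p, so the places of these summits are also close to matching. The block does not reach them, so they were not compared by alignment. The strongest ph-p summit is 60 bp and the 2124072 summit of ph-d 20 bp from the nearest block. The peaks around them reach into blocks, by 767 of 1345 bp at ph-p and 460 of 669 bp at ph-d. Reads from near-identical copies can be hard to place, and the part of this in the peaks was not tested. The sequences at the 2124072 summit of ph-d and the strongest ph-p summit are shown because the strongest peak of each copy rests on them. They read 5′ to 3′ on the minus strand, with the 21 bases centred on the summit in capitals, and 81 of the ph-d bases belong to a block.
ph-p, chrX:2137265-2137472: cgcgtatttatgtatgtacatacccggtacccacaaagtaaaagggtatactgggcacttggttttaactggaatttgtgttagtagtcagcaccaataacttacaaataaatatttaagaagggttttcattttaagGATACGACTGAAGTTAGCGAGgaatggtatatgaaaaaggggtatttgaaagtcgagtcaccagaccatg
ph-d, chrX:2123972-2124172: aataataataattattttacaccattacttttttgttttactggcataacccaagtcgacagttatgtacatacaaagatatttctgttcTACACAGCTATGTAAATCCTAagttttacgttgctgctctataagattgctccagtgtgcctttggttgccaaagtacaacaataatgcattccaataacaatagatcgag

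**Figure D3:**
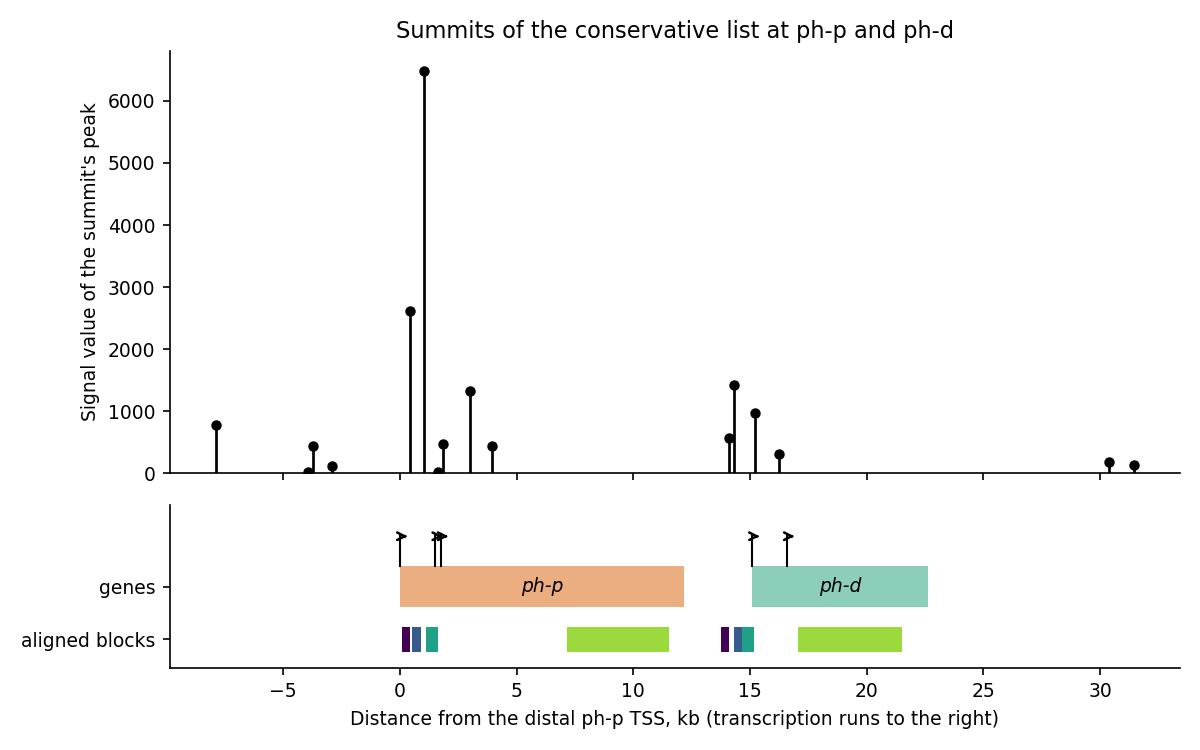
Signal value of each conservative summit (top) along ph-p and ph-d, by distance in kb from the distal ph-p TSS in the direction of transcription; below, arrows mark TSSs, boxes the genes, and bars of 1 colour a block aligned between the copies. The tallest summit, 6484.8 in ph-p, stands between aligned blocks, and the largest block holds no summit in either gene.

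Posterior sex combs, the product of Psc (FBgn0005624, 2R, 12965997 to 12980994, minus strand), is a PRC1 subunit with a RING finger. It had no promoter summit in the conservative list. The strongest promoter candidate in the ranked list, at 12980817, lay 159 bp upstream of the inner TSS. Its signal was 139.8 and its IDR 0.0109, just short of the threshold. In replicate 1 a summit at 12980901, 93 bp downstream of the outer TSS, had signal 80.9 and passed. Both positions lie between the 2 TSSs of Psc. The strongest promoter peaks of replicates 2 and 3 had IDRs of 0.0649 and 0.263. The strong peak at Psc was instead 4212 bp upstream, at 12985206 between the genes. Its signal was 5704.2, rank 16, with 1941.5 and rank 16 in replicate 1, 2262.5 and rank 15 in replicate 2, and 1534.4 and rank 28 in replicate 3. This made it the second strongest peak within 10 kb of any of the 10 genes, and no TSS of another protein-coding gene was nearer. Inside Psc an intronic summit at 12975577 had signal 742.4 and ranks 1889, 1833 and 2235 in replicates 1, 2 and 3. Beyond the 3′ end, 6518 to 7793 bp away, 3 intergenic summits had signals of 890.4, 1384.1 and 1637.1, each with a peak in all 3 replicates. For all 3 the nearest protein-coding TSS was that of another gene, 4651 to 5926 bp away.

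Su(z)2 (FBgn0265623, 2R, 12996501 to 13007911, plus strand) encodes a relative of Psc and faces away from it. It had the weakest promoter peak of the 6 genes, at 12996585, with signal 166.6 and rank 7743. The signal was 111.4 with rank 4937 in replicate 1 and 49.0 with rank 7187 in replicate 3, while in replicate 2 the promoter peak of the ranked list, 45.2, had an IDR of 0.38 and did not pass. Between the genes, summits at 12991343 and 12991678 had 498.0 and 533.1 and lay nearer to CG33798. An intronic summit near the end of Su(z)2, at 13005459, had 323.7 and was listed in replicates 2 and 3 (136.3 and 80.1) but not in replicate 1. Another 4 summits followed downstream within 10 kb, with signals from 22.2 to 430.3. Over Psc and Su(z)2 together, then, Row was strongest between and beyond the genes and weak or below the threshold at their TSSs.

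**Figure D4:**
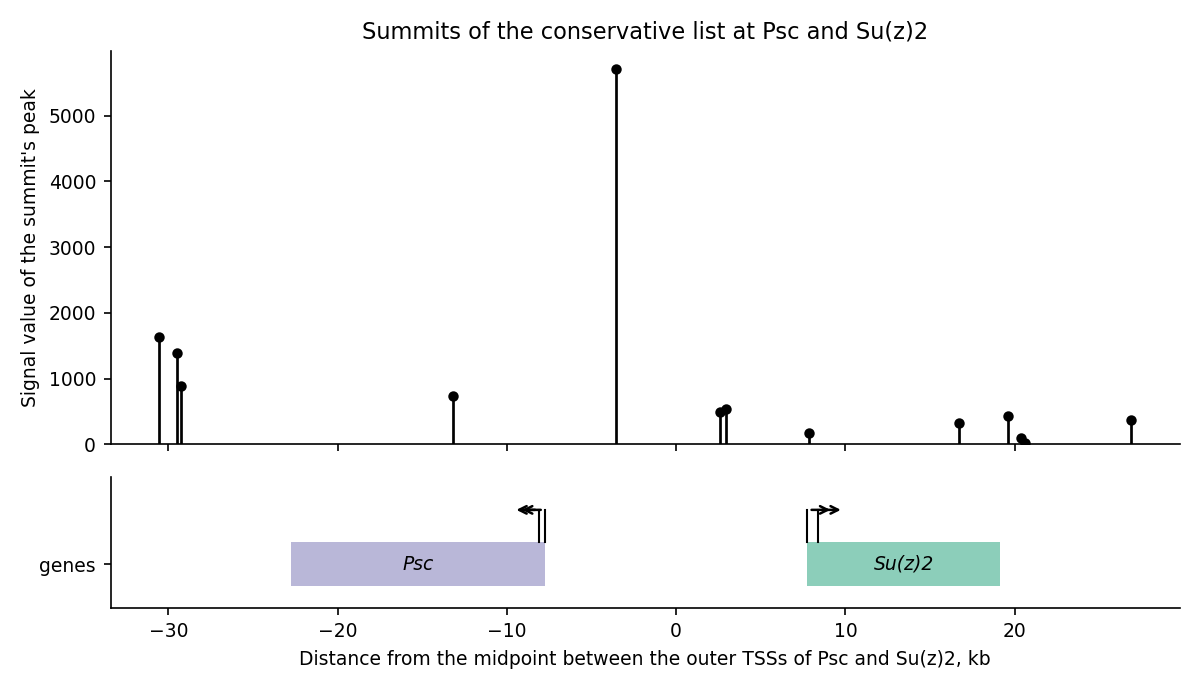
Signal value of each conservative summit (top) at Psc and Su(z)2, by distance in kb from the midpoint between their outer TSSs, with genes (boxes) and TSSs (arrows) below. The tallest summit, 5704.2, stands between the genes, 4212 bp from Psc, and the summit at the Su(z)2 TSS is 166.6.

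Polycomb, encoded by Pc (FBgn0003042, 3L, 21306138 to 21318020, minus strand), reads methylated histone H3 through its chromodomain. Its promoter passed in replicate 1 alone, with a summit 36 bp upstream, signal 54.6 and rank 8955. The ranked list of replicate 3 had a peak there at an IDR of 0.0104, just short of the threshold, and that of replicate 2 had none. In the ranked list behind the conservative one, the promoter peak of Pc had signal 107.3 and an IDR of 0.449, far from passing. The body held no summit. A strong peak lay 1560 bp beyond the 3′ end of Pc, at 21304578, with signal 2736.4 and rank 170, and ranks 60, 293 and 335 in replicates 1, 2 and 3. It belongs to another promoter by position, since the TSS of CG11309 is 80 bp away.

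Sce (FBgn0003330, 3R, 27680431 to 27682029, minus strand), which encodes the RING-finger ubiquitin ligase of PRC1, had no summit in the gene or at its TSS in any thresholded list. Among the ranked lists of the single replicates, that of replicate 1 alone had peaks there, the strongest with signal 12.8 and an IDR of 0.776. The strongest summit within 10 kb was at 27677323, 199 bp from the TSS of Hsdl2, with signal 470.9 and ranks 3485, 3703 and 2825 in replicates 1, 2 and 3.

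Of the PRC2 genes, E(z) stood out. Enhancer of zeste is the methyltransferase of the complex, and its gene (FBgn0000629, 3L, 10634575 to 10638130, minus strand) had 1 summit within 10 kb, at 10638056 in the 5′ UTR. The signal was 3039.3 and the rank 124, and E(z) was the 146th gene by promoter signal. In replicate 1 it had 719.8 and rank 288, in replicate 2 1236.6 and rank 92, and in replicate 3 1091.0 and rank 80, so it was among the strongest few percent in each. The gene shares its start with Cnep1r2, whose TSS lies 16 bp away on the other strand, and the summit was 74 bp from the E(z) TSS and 90 bp from that of Cnep1r2. The assay cannot assign the peak to 1 of them. The peak lies on annotated UTR and its sequence is not shown.

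The gene esc (FBgn0000588, 2L, 11827204 to 11829405, minus strand) encodes a WD-repeat subunit of PRC2. No thresholded list had a summit at its TSS or in its body, and of the single replicates' ranked lists that of replicate 3 alone had a peak at the TSS, with signal 29.5 and an IDR of 0.219. The nearest conservative summit, 5737 bp away in an intron of Pde1c, had signal 419.3 and ranks 3316, 3456 and 4488 in replicates 1, 2 and 3.

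Su(z)12 (FBgn0020887, 3L, 19918242 to 19923462, minus strand) encodes a zinc-finger scaffold subunit of PRC2. Its strongest promoter summit, at 19923337 in the 5′ UTR, had signal 747.0 and rank 1871. The replicates gave 186.2 and rank 2860 in replicate 1, 286.7 and rank 1582 in replicate 2, and 249.8 and rank 1698 in replicate 3. Another summit, at 19923547 and 85 bp upstream, had 257.6 in the conservative list and was a separate peak in replicate 1 (91.0), while in replicates 2 and 3 the nearest peak was the same for both summits. It lies between Su(z)12 and Pfdn6, which starts 209 bp away on the other strand and encodes a prefoldin subunit. The whole sequence between both TSSs is shown, 5′ to 3′ towards Su(z)12, because it is the upstream region of both genes; the 21 bases centred on the summit are in capitals.
Su(z)12, chr3L:19923463-19923670: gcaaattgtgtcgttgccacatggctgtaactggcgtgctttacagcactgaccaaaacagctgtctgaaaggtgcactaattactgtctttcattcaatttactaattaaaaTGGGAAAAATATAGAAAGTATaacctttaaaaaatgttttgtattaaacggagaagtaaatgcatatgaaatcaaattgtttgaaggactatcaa

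Pleiohomeotic, encoded by pho (FBgn0002521, chromosome 4, 1172469 to 1181628, minus strand), is the zinc-finger protein that binds PREs. Its strongest promoter summit lay at 1181801 between the genes, with signal 536.0 and rank 2808, and a weaker one at 1182010 had 298.3. The replicates spread widely here. The stronger peak had 90.1 and rank 6086 in replicate 1 and 208.6 and rank 2435 in replicate 2, and its summit moved by 66 and 2 bp. Replicate 3 listed 1 summit, 290 bp upstream, where the other lists had a pair. That summit had 238.3 and rank 1805. It lay 117 bp from the conservative summit at 1181801 and 92 bp from that at 1182010, so it cannot be given to 1 of them. The 201 bp centred on the conservative summit are shown because both promoter summits of pho lie upstream of the gene; they read 5′ to 3′ on the minus strand with the 21 central bases in capitals.
pho, chr4:1181701-1181901: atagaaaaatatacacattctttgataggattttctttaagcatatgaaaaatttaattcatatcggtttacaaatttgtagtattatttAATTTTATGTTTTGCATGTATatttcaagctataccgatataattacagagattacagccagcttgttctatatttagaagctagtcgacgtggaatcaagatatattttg

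Short motifs were searched on both strands within 100 bp of each of the 43 summits and set beside the same search at all 10483 summits. Windows of neighbouring summits can overlap, so the 43 are not independent, and no test was made. GAGAG, which is bound by GAGA factor and Pipsqueak, was found in 8 windows (18.6%), against 19.7% of all summits. GCCAT, the core of the Pho site, was found in 12 (27.9%), against 25.1% of all. TGAGTG, bound by Zeste, was in 11 (25.6%), against 8.68% of all. These 11 included the 2137960 and 2136537 summits of ph-p, the 2122131 summit of ph-d and the Su(z)2 promoter summit, but not the strongest summits of ph-p, Psc and E(z). For 6 of the 11 the nearest protein-coding TSS belonged to another gene, such as D2hgdh, Pgd or RhoGDI, and for 5 to a Polycomb group gene. TATCGATA, the site of Dref, was in none, against 5.08% of all. CGATA, bound by BEAF-32, was in 9 (20.9%), against 30.4% of all. GGTCACAC, from the core of Motif 1, was in 1 (2.33%), against 3.05%, and CAGCTG, an E-box, in 2 (4.65%), against 7.77%. GTGTGT, bound by Combgap, was in 3 (6.98%), against 11.5%. GAAAA, bound by Dsp1, was in 30 (69.8%), against 74.6%, and TATAAA in 15 (34.9%), against 37.9%. CGATA lies within TATCGATA, so matches of these overlap. The median GC content was 35.8% in the 43 windows and 34.3% in all.

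The same motifs were searched at the 16 TSSs of the 10 genes. From 250 bp before to 50 bp after a TSS, GAGAG was found at 10 of the 16, those of ph-p, ph-d, Psc and Su(z)2 and 1 of E(z), against 33.1% of 19276 promoters. These TSSs belong to 5 of the 10 genes, and 4 of those are the duplicated pairs. A match describes the letters in the window and is not a binding site. GCCAT was at 6 of the 16 (all promoters 41.0%), CGATA at 3 (45.6%), GGTCACAC at 3 (6.71%) and CAGCTG at 4 (17.9%). GTGTGT was at 6 (18.2%), GAAAA at 15 (81.0%) and TATAAA at 5 (42.2%), and TGAGTG (13.2%) and TATCGATA (7.98%) were at none.

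**Figure D5:**
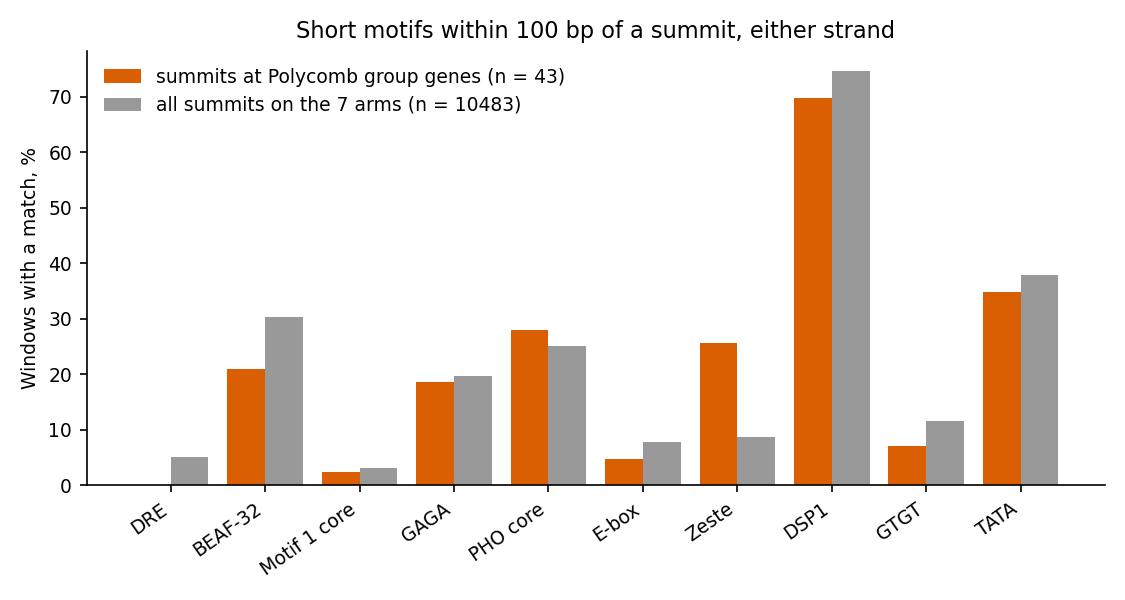
Share of windows, in percent, that hold each of 10 short motifs within 100 bp of a summit. Orange marks the 43 summits in or within 10 kb of Polycomb group genes, and grey all 10483 summits. The Zeste motif is at 25.6% against 8.68%, and the GAGA and PHO motifs are close to the share of all summits.

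Of 16 other Polycomb pathway genes, 12 had a promoter summit in the conservative list (75.0%, all genes 36.4%) and 8 had one in each replicate (all genes 28.5%). The 16 also hold genes, mxc among them, that were not listed as subunits of a complex. The strongest were at Sfmbt, the partner of Pho (1325.2, rank 741), at l(3)73Ah, a variant PRC1 subunit (1294.5, rank 774), and at mxc (1032.3, rank 1163). Jarid2, an accessory subunit of PRC2, and the demethylase gene Kdm2 had none there, and neither did caly or escl. Single replicates listed weak ones, at Jarid2 in replicate 1 (78.5) and replicate 3 (48.9), at escl in replicate 1 (61.5) and at caly in replicate 3 (40.8), while Kdm2 had none in any of them. Of 8 genes for factors that bind PREs, 7 had a promoter summit (87.5%, all genes 36.4%) and 5 in each replicate (all genes 28.5%). Trl, which encodes GAGA factor, led with 984.8 and rank 1249, followed by psq (580.3) and lola (513.1), and Dsp1 had none. The peaks assigned to phol and Spps lay nearer to the TSSs of CG3552 and CG13609. These lists, too, were drawn up with earlier results of the same data known, and no share was tested.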

How the data were processed

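Peak lists from anti-GFP ChIP-seq of row-eGFP embryos were analysed as deposited. Per the file headers and labels, coordinates are dm6 and the lists are IDR-ranked or IDR-thresholded; neither aligner nor peak caller is named in the sources used here. The authors deposited a signal value per peak, a score (a scaled IDR) and, in the ranked lists, the −log10 of the global IDR. The intervals copied into the ranked list show that the conservative list came from replicates 1 and 2 (88.79% and 67.21% found there). Of its peaks, 99.8% were also in the pooled ranked list with the same signal value, so its values are those of a pool and not independent of replicate 3. Chromatin was sheared to 200 to 800 bp, per the labels.

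Summits were placed on Ensembl 115 genes (BDGP6.54, the same assembly), with 19630 protein-coding TSSs on 7 arms. Off-arm peaks, 3 in replicate 2 and 27 in replicate 3, were left out. Sequence came from the RefSeq FASTA of that assembly, and the ph copies were aligned with blastn 2.17.0 (E-value limit 1e-10). Placement and motif search were tested on simulated data. Named genes follow a rule: the 10 members, genes that share or lie nearest to their strongest summits, the 3 strongest and the first 2 in alphabetical order without a promoter summit of each of 2 pathway lists, and the 3 genes most like ph-p. The genes caly, escl, phol and Spps, the genes nearest to the peaks of phol and Spps, and D2hgdh, Pgd, RhoGDI and CG33798 were named after their values were seen. The members, lists and motifs were chosen with earlier results of these data known. There was 1 group, so no comparison between conditions was made and no p-value is given.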

Additional observations from a re-analysis of the deposited data

How the results depend on the processing

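The counts were repeated with promoter windows of 250 and 1000 bp, a global IDR of 0.001, the lists without replicate 1 and without replicate 2, the pooled list, the 174 peaks past the threshold that the conservative list lacks (0 of them within 10 kb of the genes), assignment to the nearest TSS, interval overlap, the 5′-most end of each gene and a window of 5 kb. Genes with a promoter summit numbered 5 to 8 (6 in the report): Su(z)2 was lost at an IDR of 0.001, Psc was added without replicate 1, and Psc and Pc were added without replicate 2 and in the pooled list. Genes with one in all 3 replicates numbered 4 or 5, and with 250 bp pho was lost. Genes with a summit in the body numbered 6 or 7, pho being added by interval overlap, and all 10 kept a summit within 10 kb. The distinct summits numbered 32 to 50, with 43 without replicate 1 and 45 without replicate 2. The median rank percentile was 17.9% without replicate 1 (7 genes), 23.5% without replicate 2 (8 genes) and 17.6% in the pooled list (8 genes). The SD between the replicates was 9.81 points, but their medians cover 8, 5 and 6 genes. These medians and their spread thus also depend on which genes passed. In the lists without replicate 1 and without replicate 2, 99.5% and 99.8% of peaks had the signal value of the pooled ranked list. Their ranks are thus those of a pool and not independent of the replicate left out. Ranks and signals were not repeated with other promoter windows. Within 250 bp, the strongest summit of ph-p has signal 475.8 and rank 3234. Its summit of 6484.8 lies 469 bp from a TSS, so the standing of ph-p depends on the window. No paired analysis was possible because there was 1 group. Without read numbers, a promoter listed without a summit is below the threshold and not shown to be free of Row.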
